A study of Oryctolagus cuniculus with 20 samples.

Results

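Antibody variable domains are encoded by genes that B lymphocytes assemble from V, D and J segments (heavy chain) or V and J segments (light chain). Messenger RNA of such joined genes was measured here in condylar cartilage of the rabbit jaw joint by 164 microarray probes. They were chosen from the probe descriptions and from detection: 1246 of the 43603 probes on the array are described as a rearranged or variable region of an immunoglobulin or antibody. In 164 of these (13.2%), the scanner software marked the signal as well above background for 3 or all 4 rabbits of some group, and these are the members. They come from 135 deposited clones, and 51 members are light chain probes (44 clones) and 113 heavy chain probes (91 clones). Because detection in at least 1 group chose the members, counts of members that differ between groups are given as descriptions, with the share of all probes called beside them. A member detected in 1 group alone was chosen by its level there, so its differences between that group and another are given without a p. Where a call or an F test rank is stated for such a member, it is not independent of that choice and is a description. For members detected in several groups but not in the one compared, the p is not independent of the choice either. Reading "Ig" only as a whole word leaves 139 members.

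The 20 one-colour arrays hold 5 groups of 4 male rabbits (Oryctolagus cuniculus) aged 6 months: 4 untreated controls, and 4 rabbits each at 1, 2, 4 and 8 weeks after internal derangement of the left temporomandibular joint, an abnormal position of its disc. How it was induced is not given in the sources used here. With 4 rabbits and 4 arrays a group, each array was taken as 1 rabbit. No group is labelled as a sham control, and all comparisons with control used the same 4 control rabbits, so these 4 comparisons share their control samples. Each group lay on its own slide, so slide and group cannot be told apart. Control and 2-week arrays were scanned on 1 day, and the 1-, 4- and 8-week arrays on the other. Scan day and treatment therefore cannot be told apart when 1, 4 or 8 weeks is set against control, while 2 weeks against control and the comparisons among 1, 4 and 8 weeks are comparisons within a day.

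An antibody's variable domain holds conserved framework stretches and hypervariable loops, and the third loop of the heavy chain spans the V-D-J join, which differs from clone to clone. Most rabbit light chains are of the kappa type, and the constant region joined behind the heavy chain's variable domain sets the class (IgM, IgG or IgA). Hyaline cartilage has no blood vessels, and B cells and plasma cells, which secrete antibody, are not its resident cells. In a bulk sample, fewer cells of a type and less RNA per cell cannot be told apart.

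The probes are 60 bases long, and what they cover divides the members. The 6 sequences below are shown because their probes carry the heavy chain pattern reported first: each runs from the clone's own V-D-J join into the letters TGGGGC, in capitals, which match the start of the conserved end of a heavy chain J segment.
mp088VH: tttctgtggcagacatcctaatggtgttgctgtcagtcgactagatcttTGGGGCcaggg
DL5769: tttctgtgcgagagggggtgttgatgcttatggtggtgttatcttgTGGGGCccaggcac
mp225VH: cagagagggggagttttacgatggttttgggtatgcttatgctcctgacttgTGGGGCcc
mp043VH: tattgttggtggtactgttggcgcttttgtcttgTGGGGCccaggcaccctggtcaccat
mp012VH: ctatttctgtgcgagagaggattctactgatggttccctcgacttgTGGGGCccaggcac
mp224VH: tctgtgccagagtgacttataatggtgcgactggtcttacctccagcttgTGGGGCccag
TGGGGC was found, searching both strands, in 68 of 113 heavy chain members, 1 light chain member and 2.87% of all 43603 probes. A longer stretch that overlaps it, GGGGCCCAGGCACC, was in 33 members, all heavy chain, and in 0.161% of all probes. A further pair of heavy chain probes is shown because 1 had the lowest F test p of all members (N55, whose last letters, tctggg, stop before TGGGGC would be complete) and the other was well above background on every array (H276, described as a joined VDJ and C-alpha transcript), and neither holds a motif searched.
N55: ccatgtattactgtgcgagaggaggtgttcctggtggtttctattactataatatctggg
H276: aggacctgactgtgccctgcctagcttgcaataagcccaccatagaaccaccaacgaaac
The next pair of heavy chain probes holds GGCCACCTATTTCTGT, the end of framework 3, in capitals (16 members, all heavy chain, and 0.167% of all probes), and is shown because the probes moved in opposite directions at 1 week.
AliG8-IgG: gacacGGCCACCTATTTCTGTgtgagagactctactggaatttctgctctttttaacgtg
mp161VH: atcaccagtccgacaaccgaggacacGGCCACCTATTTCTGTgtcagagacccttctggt
The light chain probes below stand for the 3 light chain motifs searched, in capitals. The first is TATCAGCAGAAACCAGG of kappa framework 2 (8 members, 0.0252% of all probes), the second GCTGCCACTTACTACTGT of the end of kappa framework 3 (22 members, 0.0711%), and the third TTCGGCGGAGGGACC of a light chain J segment (11 members, 0.158%).
mp029VL: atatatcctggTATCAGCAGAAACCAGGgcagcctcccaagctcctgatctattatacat
mp032VL: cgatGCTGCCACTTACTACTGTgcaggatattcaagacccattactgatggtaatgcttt
mp027VL: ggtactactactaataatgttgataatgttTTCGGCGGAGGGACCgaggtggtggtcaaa
mp077VL: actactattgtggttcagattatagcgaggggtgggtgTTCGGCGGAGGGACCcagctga
mp054VL: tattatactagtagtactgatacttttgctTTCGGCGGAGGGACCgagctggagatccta
The last pair comes from clone RVH138 and shares 58 of 60 bases, with the unshared 2 in capitals. It is shown because the probes gave different results.
RVH138 A_04_P012639: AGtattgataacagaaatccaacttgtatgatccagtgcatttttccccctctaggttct
RVH138 A_04_P012637: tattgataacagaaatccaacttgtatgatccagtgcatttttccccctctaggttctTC
A match to these letters is a description of the probe. The motifs were chosen with the members' values known. The array files list all 164 members as unmapped, so no genome position is given.

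Detection of the members differed between groups. Counting a member as detected in a group at 3 or more arrays of 4, 80 were detected in the control group, 108 at 1 week, 56 at 2 weeks, 97 at 4 weeks and 102 at 8 weeks. Of the 51 light chain members, 44 were detected in controls and 34, 24, 28 and 31 at 1, 2, 4 and 8 weeks. Of the 113 heavy chain members, 36 were detected in controls and 74, 32, 69 and 71 at those times. Light chain members were thus detected most often in controls and heavy chain members least often in controls and at 2 weeks, the groups of the first scan day. In all, 39 members were detected in all 5 groups, 59 in only 1 group and 21 on all 20 arrays. Of the 59, 21 were detected in controls alone, 12 of them light chain, and 16, 2, 11 and 9 at 1, 2, 4 and 8 weeks alone.

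At the edge of the detection rule, 3 heavy chain members were each well above background on 3 arrays in all. AliG8-IgG and mp224VH had them at 1 week, and mp136VH (A_04_P015786) had them at 8 weeks, with a mean log2 level of -3.99 ± 0.35 there. Levels throughout are log2 signal relative to the array's 75th percentile, with the SD over 4 rabbits. Just outside the rule lay 104 probes with at most 2 arrays of any group. Those with the highest means were the heavy chain probes mp030VH (A_04_P015346), BB3G1-IgG (A_04_P031657) and P204 (A_04_P013276), with 8-week levels of -3.76 ± 0.63, -4.09 ± 0.99 and -3.47 ± 0.96. Probes on either side of the rule thus had overlapping levels. Of the 1082 described probes that were not kept, 737 were above background on no array.

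At 1 week, heavy chain probes that reach the J segment were higher than in controls, and light chain probes were mostly lower without passing the test. Of 164 members, 49 rose and 2 fell (limma, adjusted p under 0.05 over all kept probes), where 13.9% of the 26905 kept probes were called, 9.71% higher and 4.21% lower. The median log2 difference was 0.34 over the members and 0.02 over all kept probes. Of the 68 heavy chain members with TGGGGC, 40 rose and 0 fell, from 35 of 56 clones, with a median difference of 1.29 and a range from -0.76 to 3.47. Their 1-week arrays lay wholly above the controls for 38 and wholly below for 0, and for 47 and 2 of all 164 members, where 11.2% and 5.56% of all kept probes separated that way. Of the 45 other heavy chain members 9 rose and 2 fell (median 0.05), and of the 51 light chain members 0 were called, with 4 at an unadjusted p under 0.05 and a median of -0.82.

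Clone mp043VH (A_04_P015396) was well above background on all 20 arrays, so its detection did not differ between groups. Its log2 levels were -2.51, -2.17, -1.80 and -1.95 in the control rabbits, -0.69, -0.04, -0.31 and 0.55 at 1 week, -1.94, -1.44, -1.99 and -1.11 at 2 weeks, -0.69, -0.71, -1.07 and -0.77 at 4 weeks and -0.60, -0.85, -0.88 and -0.77 at 8 weeks. Every 1-, 4- and 8-week array lay above every control array, and the 2-week arrays overlapped the controls. Its log2 differences from control were 1.98 ± 0.23 (SE) at 1 week, 1.30 ± 0.23 at 4 weeks and 1.33 ± 0.23 at 8 weeks (limma adjusted p = 1.8e-05, 0.00181 and 0.00119), against 0.49 ± 0.23 at 2 weeks (adjusted p = 0.653). Without control replicates 1 and 2 the 4-week call was lost (adjusted p = 0.0589). Among TGGGGC members detected in both groups, 8 of 12 rose at 1 week (median 1.08). Of all 22856 kept probes detected in both these groups, 1654 were called higher and 961 lower.

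The largest rises at 1 week were those of mp088VH, P111, mp001VH and DL5769, none of them well above background on any control array, so that only a lower bound of the fold can be given. The bound sets the group's mean against the lowest level that was well above background on each dim array, or the probe's own level where higher. For mp088VH the levels were -6.24, -6.26, -5.82 and -5.64 in the control rabbits, -3.01, -2.01, -2.88 and -2.16 at 1 week, -6.32, -5.86, -6.29 and -5.52 at 2 weeks, -3.74, -3.95, -4.23 and -3.95 at 4 weeks and -3.71, -3.54, -3.06 and -3.54 at 8 weeks. The 1-week arrays lay highest, the 4- and 8-week arrays between, and the control and 2-week arrays lowest and overlapping. The 1-week signal was at least 2.46-fold that of controls (limma adjusted p = 8.65e-08, group means -2.52 ± 0.50 and -5.99 ± 0.31, n = 4 each) and the 8-week signal at least 1.28-fold (adjusted p = 3.85e-06). DL5769, a clone of IgM class, was at least 2.71-fold higher at 1 week, 1.57-fold at 4 weeks and 1.83-fold at 8 weeks (adjusted p = 6.37e-07, 2.9e-05 and 1e-05). Its control arrays read -5.69, -5.01, -5.20 and -5.55, and its 1-week arrays -3.08, -2.36, -2.56 and -1.52, all above them. P111 (A_04_P031602), a mu chain detected at 1 week alone, and mp001VH (A_04_P031372) were at least 2.43-fold and 2.2-fold higher at 1 week (adjusted p = 4.64e-06 for mp001VH).

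Both heavy chain members that fell at 1 week lack TGGGGC. Clone mp161VH, which holds the framework 3 motif, read -1.15, -3.32, -3.36 and -2.13 in the control rabbits, -4.56, -5.77, -3.71 and -4.88 at 1 week, -5.21, -4.11, -3.42 and -3.61 at 2 weeks, -4.90, -4.06, -4.02 and -4.17 at 4 weeks and -3.54, -5.68, -6.40 and -5.10 at 8 weeks. Its 4 control arrays lay above every 1-, 2-, 4- and 8-week array, with control replicate 1 highest. It was detected in controls alone and differed from them by -2.24 ± 0.60 (SE, log2) at 1 week and -2.69 ± 0.60 at 8 weeks. Both differences were called, but detection in controls alone chose this member, so the calls are descriptions. The 1-week call was lost without control replicate 1 or 1-week replicate 2. The 8-week call was lost without control replicates 1 and 2 together. VR17VH (A_04_P016361) was at -3.61 ± 0.66 in controls and -5.17 ± 0.65 at 1 week, a difference of -1.56 ± 0.43 (SE), which was not called without 1-week replicate 1 or any 1 of control replicates 1, 3 and 4. VR17VH too was detected in controls alone, so its call is a description as well. Clone AliG8-IgG, with the same framework 3 letters as mp161VH, was instead well above background on 3 of the 1-week arrays and on no array of another group. It read -4.29, -2.57, -1.02 and -4.87 at 1 week, against -6.20, -6.21, -5.86 and -5.61 in controls, at least 1.54-fold higher, with a spread of 1.74 (SD) among the 1-week rabbits. It was not called when only these 2 groups were fitted.

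H276 is described as a joined VDJ and C-alpha transcript, and which part of that transcript the probe covers was not determined here. The H276 probe was detected on all 20 arrays and rose at 1 week, and its differences at the other times were not called. Its levels were -1.32, -1.57, -1.50 and -0.68 in the control rabbits, -0.52, -0.41, -0.30 and 0.22 at 1 week, -1.07, -1.18, -1.42 and -1.63 at 2 weeks, -1.38, -1.17, -0.89 and -0.56 at 4 weeks and -0.86, -1.21, -1.44 and -0.90 at 8 weeks. All 1-week arrays lay above all controls, while the arrays of the later times overlapped them. The log2 difference was 1.01 ± 0.23 (SE, limma adjusted p = 0.00579) at 1 week and 0.27 ± 0.23 at 4 weeks (adjusted p = 0.511), and the difference between 1 and 4 weeks itself was not called (-0.75 ± 0.23, adjusted p = 0.147). The 1-week call was lost without control replicates 1 and 2 (adjusted p = 0.105) and in a fit to the 2 groups alone (0.0542). The probe for the IgA constant region (A_04_P016571), a non-member, read -1.62, 0.15, -0.55 and 0.95 at 1 week and -2.23, -1.57, -1.23 and -0.43 in controls, overlapping (difference 1.1 ± 0.49, adjusted p = 0.149).

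At 2 weeks, in the comparison that shares a scan day with controls, no member was called by limma, with 18 of 164 at an unadjusted p under 0.05, where 0.453% of all kept probes were called. The lowest adjusted p among members was 0.0751. The 68 heavy chain members with TGGGGC had a median log2 difference of 0.21 (47 above and 21 below 0), the 45 without it 0.03, and the 51 light chain members -0.77 (2 above and 49 below 0), against 0.04 over all kept probes. The arrays lay wholly above control for 7 members and wholly below for 2, where 4.24% and 1.46% of all kept probes did, and 0.242% and 0.212% were called higher and lower. A fit to the 8 arrays of that day alone also called 0. The medians of the TGGGGC members by array ran from -4.51 to -4.12 at 2 weeks, within the -4.68 to -4.02 of controls. They ran from -3.46 to -2.44 at 1 week, -3.64 to -3.24 at 4 weeks and -3.54 to -3.24 at 8 weeks, all above every array of the first scan day. The medians of the light chain members overlapped in all groups: -4.08 to -1.94 in controls and -4.07 to -1.91 at 2 weeks, -3.81 to -2.48 at 1 week, -3.48 to -3.05 at 4 weeks and -3.88 to -3.32 at 8 weeks.

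At 4 weeks 42 members rose and 1 fell, where 8.56% of all kept probes were called, 6.38% higher and 2.19% lower, and the median difference of members was 0.46 against 0.03. The arrays lay wholly above control for 50 members and wholly below for 5 (11.9% and 5.86% of all kept probes). TGGGGC members accounted for 34 of the rises, from 30 clones, with a median of 1.07. The other heavy chain members had 7 rises and 1 fall and the light chain members 1 rise. Of 11 TGGGGC members detected in both groups, 6 rose (median 0.87), where 909 of all 23042 kept probes detected in both were called higher. The largest called differences were in mp041VH (A_04_P015395), mp078VH (A_04_P015551), mp012VH and DL5769. Clone mp041VH read -2.42, -4.01, -3.21 and -2.08 at 4 weeks and -6.21, -6.20, -5.90 and -5.62 in controls, and was at least 1.84-fold higher, while its 1-week arrays read -4.96, -5.79, -6.90 and -2.46. It was not called without any 1 of 4-week replicates 1, 3 and 4 or control replicates 1, 2 and 3. Clone mp012VH read -3.0, -2.13, -3.05 and -2.78 at 4 weeks against -5.57, -5.90, -4.18 and -4.60 in controls, at least 2.1-fold (limma adjusted p = 0.0054, and 0.149 without control replicates 1 and 2). Clone mp078VH was at least 1.15-fold higher and was not called without any 1 of 4-week replicates 2, 3 and 4 or control replicates 1, 2 and 3. Both mp041VH and mp078VH were detected at 4 weeks alone. The fall was again VR17VH, at -5.61 ± 0.19 and above background on no 4-week array, at least 1.3-fold lower.

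At 8 weeks 39 members rose and 4 fell, where 12.8% of all kept probes were called, 8.46% higher and 4.3% lower, and the median difference was 0.22 against 0.04. The arrays lay wholly above control for 47 members and wholly below for 4 (13.8% and 8.76% of all kept probes). Of the rises 34 were TGGGGC members, from 29 clones, with a median of 1.04, and 5 were other heavy chain members. Clone mp225VH read -2.41, -2.77, -2.84 and -2.77 at 8 weeks against -5.54, -4.96, -4.76 and -4.01 in controls, all above, at least 2.17-fold (limma adjusted p = 3.19e-05). DL5769, mp088VH and mp001VH (at least 1.26-fold) were the other largest rises. The 4 falls were mp161VH, VR17VH (at least 1.54-fold lower) and the light chain members mp032VL and mp054VL. All of them were detected in controls alone, so these calls are not independent of how members were chosen. Clone mp032VL read -4.11, -2.82, -1.14 and -2.79 in controls and -4.63, -6.05 and -6.47 on the 3 usable arrays at 8 weeks, at least 2.86-fold lower. Its fit leaves out the outlier spot of 8-week replicate 3, and it was not called in the authors' deposited value table or without any 1 of 8-week replicates 2 and 4 or control replicates 2 and 3. Clone mp054VL was at -3.38 ± 0.40 in controls and -4.67 ± 0.63 at 8 weeks, and was not called without any 1 of replicates 2, 3 and 4 of either group.

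Of the 57 members that rose in at least 1 of these 3 comparisons, 33 rose in all 3, 45 hold TGGGGC and 1 is a light chain. The comparisons share the same 4 controls and the same difference in scan day, so this is a count and no independent repeat. Dim probes outside the list were also called higher more often than lower at 1, 4 and 8 weeks. Of the 4654 kept probes not on the list with a mean level under -3, 18.4%, 14.7% and 16.7% were called higher at 1, 4 and 8 weeks and 0.559% at 2 weeks (3.57%, 3.03%, 2.9% and 0.902% lower at 1, 4, 8 and 2 weeks), against 31.5%, 28.2%, 25.8% and 0% of the 124 members below that level. Of 244 kept probes outside the list that hold TGGGGC, 15.6%, 8.2% and 13.1% were called higher at 1, 4 and 8 weeks. Their part in the result was not tested.

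The background correction used bears on these calls. With normexp background correction, with an offset of 50, 0 members were called by limma in any comparison or by the F test (3, 0, 13 and 8 at an unadjusted p under 0.05 at 1, 2, 4 and 8 weeks against control, 3 by the F test). Calls over all kept probes were few as well under this correction, as given in the closing section. Clones mp043VH and H276, detected on all 20 arrays, also lost their 1-week calls (limma adjusted p = 0.0649 and 0.375). The cause was not tested. Under normexp the median difference of the TGGGGC members was 0.26, 0.24, -0.16 and -0.08 at 1, 2, 4 and 8 weeks. Of these 68 members 56, 65, 16 and 17 lay above 0, so the main fit's contrast between 1 and 2 weeks was not kept. With the same correction and quantile scaling of the arrays, an alternative chosen after seeing the data, 46, 22 and 20 members rose, 38, 18 and 16 of them with TGGGGC. Without control replicates 1 and 2, whose muscle transcripts were high (also chosen after seeing the data), 35, 18 and 23 members rose, and 28, 15 and 18 with TGGGGC. The share of all kept probes called is not given here for either alternative, so these counts are descriptions. Across all 5 groups the F test called 54 members (40 with TGGGGC, 13 other heavy chain, 1 light chain), where 15.8% of all kept probes were called. The lowest F test p belonged to N55, mp088VH, mp100VH (A_04_P015641), DL5769, mp224VH and mp005VH (A_04_P015262). Clone mp224VH was detected at 1 week alone, so its place there is not independent of how members were chosen. N55, a mu chain, read -6.27, -6.30, -6.03 and -5.73 in the control rabbits, -3.33, -3.27, -3.73 and -3.35 at 1 week, -6.38, -5.92, -6.26 and -5.58 at 2 weeks, -4.23, -3.98, -4.25 and -4.00 at 4 weeks and -3.95, -4.10, -4.04 and -3.94 at 8 weeks. Every array of the second scan day lay above every array of the first (F test adjusted p = 1.98e-08).

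Among the times that share the second scan day, 6 members differed between 1 and 4 weeks, 2 higher and 4 lower at 4 weeks, where 1.07% of all kept probes were called, 0.903% higher and 0.171% lower. No member was called by limma between 1 and 8 weeks (26 at an unadjusted p under 0.05, where 0.0149% of all kept probes were called, 0.0112% higher and 0.00372% lower) or between 4 and 8 weeks (8 at an unadjusted p under 0.05, where 0.558% were called, 0.108% higher and 0.45% lower). Arrays lay wholly above or below the earlier time for 3 and 21 members between 1 and 4 weeks (3.14% and 3.33% of all kept probes), for 0 and 18 between 1 and 8 weeks (3.1% and 4.95%) and for 3 and 13 between 4 and 8 weeks (5.23% and 6.76%). The TGGGGC members had median log2 differences of -0.41 from 1 to 4 weeks and -0.35 from 1 to 8 weeks, and 15 and 11 of 68 lay wholly below the 1-week arrays. Between 4 and 8 weeks their median was 0.01. Clone mp088VH was lower at 4 than at 1 week by 1.45 ± 0.24 (SE, log2, adjusted p = 0.00403). Clone mp224VH read -3.90, -3.45, -3.49 and -3.03 at 1 week and -4.84, -4.49, -4.53 and -4.70 at 4 weeks, where no array was above background, so that it was at least 1.43-fold lower. AliG8-IgG read -6.03, -5.70, -6.21 and -5.90 at 4 weeks, at least 1.74-fold lower than at 1 week, and was not called without 1-week replicate 2 or 4-week replicate 3 or in the fit to that scan day alone. Both mp224VH and AliG8-IgG were detected at 1 week alone. Clone mp079VH (A_04_P015562) read -2.83, -2.45, -2.79 and -2.94 at 4 weeks, all above its -3.74, -4.55, -4.39 and -3.18 at 1 week (difference 1.21 ± 0.25 SE, adjusted p = 0.0242). Its call was lost in the fit to that day alone (0.0733) and without any 1 of 1-week replicates 2 and 3 or 4-week replicates 1, 2 and 3 (0.0586 to 0.0993). In a fit to these 2 groups alone 0 members were called, and in a fit to the 12 arrays of that day 6 were, all lower. Without 1-week replicate 4, 15 were called, 10 of them higher at 4 weeks, and without any 1 of 4-week replicates 1, 2 and 3, 3 were called, all lower. The share of all kept probes called is not given here for these fits, so these counts are descriptions.

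Clone RVH138 shows how far probes of 1 clone can differ. Its 5 member probes tile the same stretch in steps of 1 base, and at 1 week their log2 differences from control were -0.78, -0.76, 1.02, 1.30 and 1.45 in probe order (A_04_P012636 to A_04_P012640), with the last 3 called (limma adjusted p = 8.29e-05, 5.86e-06 and 1.45e-05). The pair printed above moved oppositely between 1 and 4 weeks. Probe A_04_P012639 fell by 0.72 ± 0.14 (SE, adjusted p = 0.0119) and A_04_P012637 rose by 1.31 ± 0.31 (adjusted p = 0.0476). The levels of A_04_P012639 were -4.22, -3.74, -3.64 and -3.58 in controls and -2.33, -2.59, -2.50 and -2.56 at 1 week, and those of A_04_P012637 were -3.57, -3.04, -3.85 and -3.66 and -4.10, -4.97, -4.97 and -3.11. The groups thus separated, 1 week above control, on A_04_P012639 and overlapped on A_04_P012637. The 1-to-4-week call of A_04_P012639 was lost without 4-week replicate 1 or 2 (limma adjusted p = 0.0516 and 0.0508). A fit to the 1- and 4-week groups alone also lost it (0.172). That of A_04_P012637 was lost without any 1 of 1-week replicates 1, 2 and 3 or of the 4-week replicates (0.0681 to 0.167). The unfiltered fit (0.0713), the fit to that scan day (0.161), the fit to these groups alone (0.345) and the replicate block (0.0649) lost it too. The 5 probes of clone 2819 (A_04_P014326 to A_04_P014330) differed from control at 1 week by 0.79 to 2.49, with 3 called, and those of mp194VH by 0.29 to 2.04, with 2 called. The 3 member probes of N55 differed by 2.01 to 2.66, all called, and the 5 of clone 1.12-1 by -0.71 to 0.03, with none called. A call at 1 probe was thus not always shared by a probe shifted by 1 base.

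Light chain members lay below control at every time, but few singly. Medians of their log2 differences were -0.82, -0.77, -0.81 and -1.03 at 1, 2, 4 and 8 weeks, and 43, 49, 42 and 43 of 51 were below 0, while 0, 0, 0 and 2 fell and 1 rose, at 4 weeks. Without control replicate 1, whose light chain levels were the lowest of the controls, 9 fell at 8 weeks and 16 of all members did. Leaving out the lowest control array raises the control mean of such probes. The share of all kept probes called in that fit is not given here, so these counts are descriptions. All 22 members with the framework 3 letters GCTGCCACTTACTACTGT lay below control at each time, with medians of -1.04, -0.93, -1.07 and -1.30, and 1 of them, mp032VL, was called, at 8 weeks. These probes share that sequence, so they are not separate measurements. Light chain members detected in both groups had medians of -0.75, -0.68, -0.54 and -0.85. Clone mp027VL, a light chain J probe detected on all 20 arrays, read -2.04, -0.77, -0.39 and -0.04 in the control rabbits, -2.62, -0.95, -1.55 and -2.40 at 1 week, -2.64, -2.27, -1.54 and -0.06 at 2 weeks, -2.34, -1.69, -1.75 and -1.85 at 4 weeks and -1.49, -2.52, -1.12 and -2.12 at 8 weeks. Control replicates 2 to 4 and 2-week replicate 4 were high, control replicate 1 was not, and all groups overlapped (1-week difference -1.07 ± 0.53 SE, limma adjusted p = 0.186). Clone mp029VL, of framework 2, read -2.36, -0.91, -0.62 and -0.14 in controls and -1.75, -0.72, -0.97 and -1.63 at 1 week, with differences of -0.42 to -0.26 over the 4 times and adjusted p from 0.714 to 0.916. The framework 2 probes mp156VL (A_04_P014891) and mp200VL (A_04_P015091) differed from control by -0.32 ± 0.42 and -0.19 ± 0.42 (SE) at 1 week (adjusted p = 0.646 and 0.802).

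Clone mp077VL, the member of the highest mean level, did not follow that order. It read -0.81, 0.07, 0.48 and 0.37 in controls, -0.33, 1.29, -0.08 and 1.59 at 1 week, -0.57, -0.005, -0.23 and 0.22 at 2 weeks, 0.32, 1.06, -0.05 and 0.39 at 4 weeks and 0.46, 0.17, -0.10 and -0.14 at 8 weeks, overlapping throughout. Its difference from control at 1 week was 0.59 ± 0.39 (SE, limma adjusted p = 0.328). The heavy chain probe of allotype VHa2 (A_04_P029792) was at -0.48 ± 0.44 in controls and -0.95 ± 0.65, -0.84 ± 0.33, -0.39 ± 0.14 and -1.09 ± 0.19 at 1, 2, 4 and 8 weeks, with adjusted p of 0.152 or more.

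H276, a member whose description also names C-alpha, was called at 1 week as given above. Probes for whole chains and constant regions outside the members were not called in any comparison with control. Of 28 such probes that are not variable region members, 15 were kept and 0 were called at any time by limma (4, 0, 1 and 2 at an unadjusted p under 0.05 at 1, 2, 4 and 8 weeks), with median differences of -0.97, -0.54, -0.70 and -0.79. A kappa chain probe (A_04_P014226) read 3.25, 4.86, 5.18 and 5.61 in the control rabbits, 2.95, 4.36, 4.25 and 3.23 at 1 week, 3.36, 3.70, 4.04 and 5.59 at 2 weeks, 3.51, 3.76, 4.17 and 3.97 at 4 weeks and 3.56, 3.32, 4.47 and 3.26 at 8 weeks. Control replicates 2 to 4 and 2-week replicate 4 were highest, as for mp027VL, and the groups overlapped. The IgG heavy chain probe (A_04_P027916) was at -1.53 ± 1.93 in controls and -4.31 ± 1.62, -3.09 ± 1.1, -4.28 ± 1.01 and -3.57 ± 1.87 at 1, 2, 4 and 8 weeks (adjusted p from 0.0811 to 0.81). The probe for the secreted mu chain of IgM (A_04_P003651) was at -2.68 ± 1.37, -3.07 ± 1.17, -1.87 ± 2.04, -1.17 ± 0.22 and -2.53 ± 0.90 (adjusted p from 0.3 to 0.937). Of the mu chain clones, N55 and DL5769 rose at 1, 4 and 8 weeks. P111 was called at those times too, but at 4 weeks not in the unfiltered fit (adjusted p = 0.0579), in a fit to the 2 groups (0.113) or without any 1 of 4-week replicates 1, 2 and 4 or control replicates 1, 2 and 3 (0.0706 to 0.144). Its 8-week call was lost without any 1 of 8-week replicates 1 and 4 or control replicates 1 and 2 (0.05004 to 0.0597). The difference between these clones and the secreted mu chain probe was not tested.

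Across the 20 arrays, light chain members followed the kappa chain probe with a median Pearson r of 0.85 (Spearman rho 0.77), from -0.16 to 0.96, and 37 of 51 were over 0.7. Without control replicate 4 and 2-week replicate 4, the arrays farthest from that probe's median, the median r was 0.76, and it was 0.97 within the 8 arrays of the first scan day and 0.65 within the 12 of the second. Heavy chain members with TGGGGC had a median r of -0.21 (rho -0.15), and 0.40 and -0.04 within the days, and none was over 0.7. Heavy chain members without it had a median r of 0.20, and 3 of 45 were over 0.7. These values describe arrays that share slides and scaling, and probes that share sequence.

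The genes that make or mark antibody-producing cells were sparsely covered. No probe could be matched by name to any of the 12 genes of a B cell list or the 11 of a plasma cell list, so the presence of those cells was not checked by their markers. PRKDC, a kinase used in V(D)J joining, differed by -0.15 to 0.52 (log2) and was not called by limma at any time (adjusted p of 0.273 or more). TNFSF13, also known as APRIL, a survival factor of plasma cells, fell by 0.80 ± 0.25 (SE, log2) at 1 week (adjusted p = 0.0437) and was not called later (adjusted p of 0.704 or more).

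Markers of other cell types differed between the groups as well. The 8 measured skeletal muscle genes had array medians of -1.60 to 4.35 in controls and -4.44 to -1.86 on the other 16 arrays, with 6, 3, 6 and 7 genes called lower at 1, 2, 4 and 8 weeks. TNNC2, of fast muscle fibres, read 5.57, 7.74, 1.98 and 0.97 in controls, highest in replicates 1 and 2. Of the 2 measured myeloid genes, CD14 and MSR1, both fell at 4 weeks, by 1.29 ± 0.31 and 2.05 ± 0.58 (SE, log2) (adjusted p = 0.0133 and 0.0354). Haemoglobin genes HBA and HBB, from red cells, were not called at any time. Of the T cell list 2 of 12 genes were kept (CD5 and CTLA4) and 0 called by limma at any time. CD86, a costimulatory molecule of antigen-presenting cells and the 1 kept gene of 8 in an antigen presentation list, was not called. The cartilage gene CNMD was above background on all 20 arrays and SOX9 on 8, and SOX9 rose at 1 week (at least 1.99-fold, adjusted p = 0.0194). The antibody receptor gene FCGRT ran from 5.12 to 6.09 over the 20 arrays and was not called. The part of these cell types in the members' values was not tested.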

How the data were processed

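RNA of condylar cartilage from 20 rabbits was hybridised in 1 colour (Cy3) to Agilent arrays of 60-base probes, 1 array per rabbit. The deposited files hold linear spot intensities that the authors took with Agilent Feature Extraction 10.7.1.1, per the file headers, which subtracted background and gave a detection flag per spot. The deposited value table holds the same values for 16 arrays, unscaled and uncentred (column medians 28.28 to 90.22), while its 4 8-week columns each equal another 8-week array, which leaves the numbering of those 4 rabbits unsettled.

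The processed intensity of each spot was taken to log2 and each array's 75th percentile over 43603 averaged probes was subtracted. Outlier spots were left out (5 to 62 per array), no spot was saturated, and 49.05% to 66.4% of spots per array were well above background (75th percentiles 174 to 641.6). The number of arrays limits the precision. Probes well above background on 3 or more of 4 arrays of a group were kept (26905). limma 3.58.1 (R 4.3.3) fitted 5 group means over all 20 arrays, with 7 comparisons and an F test, Benjamini-Hochberg adjustment over all kept probes and calls at an adjusted p under 0.05, two-sided. The fit was tested on simulated data. Nothing in the labels pairs rabbits of equal number (median correlation of their deviations 0.008, -0.33 to 0.38).

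The members, motifs and gene lists were chosen with earlier results of these data known. Named members are the 8 of highest mean signal, up to 4 rises and 4 falls per comparison by size among those called, the 6 of lowest F test p, up to 3 on either side of the detection rule, and, of other lists, the measured immunoglobulin and antibody-gene probes and up to 3 genes per list. Other features were chosen after their values were seen. Alternatives changed centring, normalization, background correction, filter, groups fitted, replicate block, value source, description match and arrays used.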

Additional observations from a re-analysis of the deposited data

Results flagged for a closer look

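The check covered the named members and the array medians of all members, light chain members and heavy chain members with or without TGGGGC. Of 164 groups of 4 arrays checked, 5 (3.05%) held 1 array far from the other 3, and chance flags about 5% of such groups. RVH138 (A_04_P012637) read -3.30 in 2-week replicate 2, with the other 3 between -3.07 and -3.04. Clone mp029VL read -1.63 in 4-week replicate 1 (others -1.24 to -1.18), and mp054VL -5.09 in 4-week replicate 4 (others -4.29 to -4.24). In 8-week replicate 1, mp224VH read -4.15 (others -4.71 to -4.66) and mp225VH -2.41 (others -2.84 to -2.77).

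The difference from control was itself unlike at 1 and 4 weeks for 6 members, by the limma test of 4 against 1 week. It was 1.31 log2 units higher at 4 weeks for RVH138 probe A_04_P012637 and 1.21 higher for mp079VH. It was lower for RVH138 probe A_04_P012639 (-0.72), AliG8-IgG (-2.77), mp088VH (-1.45) and mp224VH (-1.17). AliG8-IgG and mp224VH were detected at 1 week alone, so their differences are not independent of how members were chosen.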

How the results depend on the processing

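The number of members called kept within 1.5 times of its main value (51, 0, 43 and 43 at 1, 2, 4 and 8 weeks against control, 6, 0 and 0 among 1, 4 and 8 weeks, 54 by the F test) in the alternatives other than those given here. With normexp background correction the counts were 0 at 1, 4 and 8 weeks, 0 between 1 and 4 weeks and 0 by the F test, where all kept probes gave 44, 28, 35, 13 and 73 calls. With normexp and quantile normalization together they were 26 at 4 weeks, 24 at 8 weeks and 3 between 1 and 4 weeks. Median centring, which took the median difference over all probes as low as -0.12, gave 2 at 2 weeks and 1 between 1 and 8 weeks. Quantile normalization gave 4 and the unfiltered fit 1 between 1 and 8 weeks. Fitting the compared groups alone gave 0 between 1 and 4 weeks and 1 between 4 and 8 weeks. Without control replicates 1 and 2 the counts were 2, 19 and 28 at 2, 4 and 8 weeks. Leaving out 1 array gave 47 to 55, 0 to 1, 32 to 50 and 34 to 47 at 1, 2, 4 and 8 weeks, 3 to 15 between 1 and 4 weeks, 0 to 2 between 1 and 8 weeks and 50 to 66 by the F test. With the replicate block the counts were 54, 0, 44, 46, 7, 0, 0 and 58. For the alternatives other than normexp, calls over all kept probes are not given in this paragraph, so their counts are descriptions.

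Normexp reversed 14 of 54 named differences (48 from control and 6 between 1 and 4 weeks), all 14 from control. At 4 weeks these were A_04_P012639 (-0.22), A_04_P013325 (-0.12), A_04_P015262 (-0.070), A_04_P015551 (-0.0074), A_04_P015597 (-0.10), A_04_P015641 (-0.15), A_04_P016091 (-0.31), A_04_P031372 (-0.18) and A_04_P031602 (-0.063). At 8 weeks they were A_04_P012639 (-0.00026), A_04_P015262 (-0.071), A_04_P015641 (-0.047), A_04_P016091 (-0.16) and A_04_P031602 (-0.0028). The other 40 lost their calls under normexp, the cause was not tested, and no other alternative reversed a named difference. Of 1246 described probes unfiltered, 91, 0, 56 and 58 were called at 1, 2, 4 and 8 weeks. Of all 43603 probes 3601, 74, 2101 and 2959 were called in that fit. Without the detection filter, the described probes were thus called at a smaller share than all probes at each time. Signal close to background limits these probes.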
